A study of Caenorhabditis elegans with 6 samples.

Results

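The cell corpse engulfment genes of the nematode Caenorhabditis elegans are described here in whole embryos that lack the microRNAs mir-35 to mir-41, set against wild type embryos. The members are ced-1, ced-2, ced-5, ced-6, ced-7, ced-8, ced-10, ced-12 and psr-1, and every probe set whose gene symbol in the deposited table names 1 of these 9 genes was taken. All 9 genes were found, on 16 of the 22548 probe sets that remained once the array controls were removed. Of these genes 6 have several probe sets, and ced-8, ced-12 and psr-1 have 1 each.

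There were 3 arrays of mutant embryos, genotype mir-35-41(nDf50), in the strain VT2935 lacking nEx1187, which by nomenclature is an extrachromosomal array. There were 3 arrays of the wild type strain N2. Cultures of both strains grew at 20 degrees Celsius on plates with egg yolk from chickens, and mixed-stage embryos were released from mixed-stage cultures with hypochlorite, so each array is a whole-embryo average over many ages. Total RNA was hybridised, and the values are normalized intensities of single Affymetrix arrays. The stage names in a free-text line of the labels are not nematode terms and were ignored. That line differs between mutant replicates 1 and 2 and the other arrays, and the meaning of this was not tested. Whether the replicates were separate cultures is not stated, so p-values measure only the spread between these arrays, which may be technical. Values of single arrays are given for each genotype in the order of replicates 1, 2 and 3.

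Cells that undergo programmed death in the worm embryo expose phosphatidylserine on their surface and are eaten by their neighbours. The signal to engulf runs through 2 partly redundant pathways. In the first, the receptor CED-1 acts with the ABC transporter CED-7 and the adaptor CED-6. In the other, the adaptor CED-2 (CrkII), the exchange factor CED-5 (DOCK180) and its partner CED-12 (ELMO) activate the Rac GTPase CED-10, which remodels actin in the engulfing cell. CED-8 promotes the exposure of phosphatidylserine on the dying cell, and PSR-1 binds that lipid on the engulfing cell, upstream of CED-2, CED-5 and CED-12. The mir-35 family consists of embryonic microRNAs with a shared seed, and it has been reported to hold down egl-1, the gene that starts the death programme.

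No engulfment gene passed the test between the genotypes. The test was limma on the log2 values, with Benjamini-Hochberg adjustment over all 22548 probe sets and a threshold of 0.05. By this rule 0 of the 16 engulfment probe sets were higher and 0 were lower, with adjusted p between 0.463 and 0.985. Over the whole array 28 probe sets were called higher (0.124%) and 1 lower (0.00443%), 0.129% in all. At an unadjusted limma p under 0.05 there was 1 of 16 member probe sets, against 10.2% of all probe sets. The log2 difference, mutant minus wild type, was positive on 11 of the 16 and had a median of 0.14. Over all probe sets the median was -0.10 and 37.8% were positive. Part of that lean lay in dim probe sets. With those below the median level removed, 49.2% were positive and the median was -0.009. Of the 15 members left, 10 were then positive. After the arrays were centred on their medians or quantile normalized again, 8 of 16 were positive, against 27.3% and 42.1% of all probe sets, because the differences of ced-1 173720_at, ced-6 175802_at and ced-10 173435_s_at, all near 0, turned negative. With wild type replicates 1 and 3 left out, 4 of the 16 were positive, against 47.7% of all probe sets. The arrays were normalized by the authors by an unstated method that left their medians unequal. The median log2 intensity was 6.49, 6.56 and 6.56 on the mutant arrays, against 6.43, 6.51 and 6.29 on the wild type arrays, so wild type replicate 3 was the lowest. It was also 1 of the 2 wild type arrays low in ced-7, ced-5 and ced-12. The differences of their 5 probe sets lay between 0.53 and 0.95 after centring and between 0.51 and 1.03 after quantile normalization again, with 0 called by limma in either, against 0.66 to 1.08 without these steps.

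**Figure D1:**
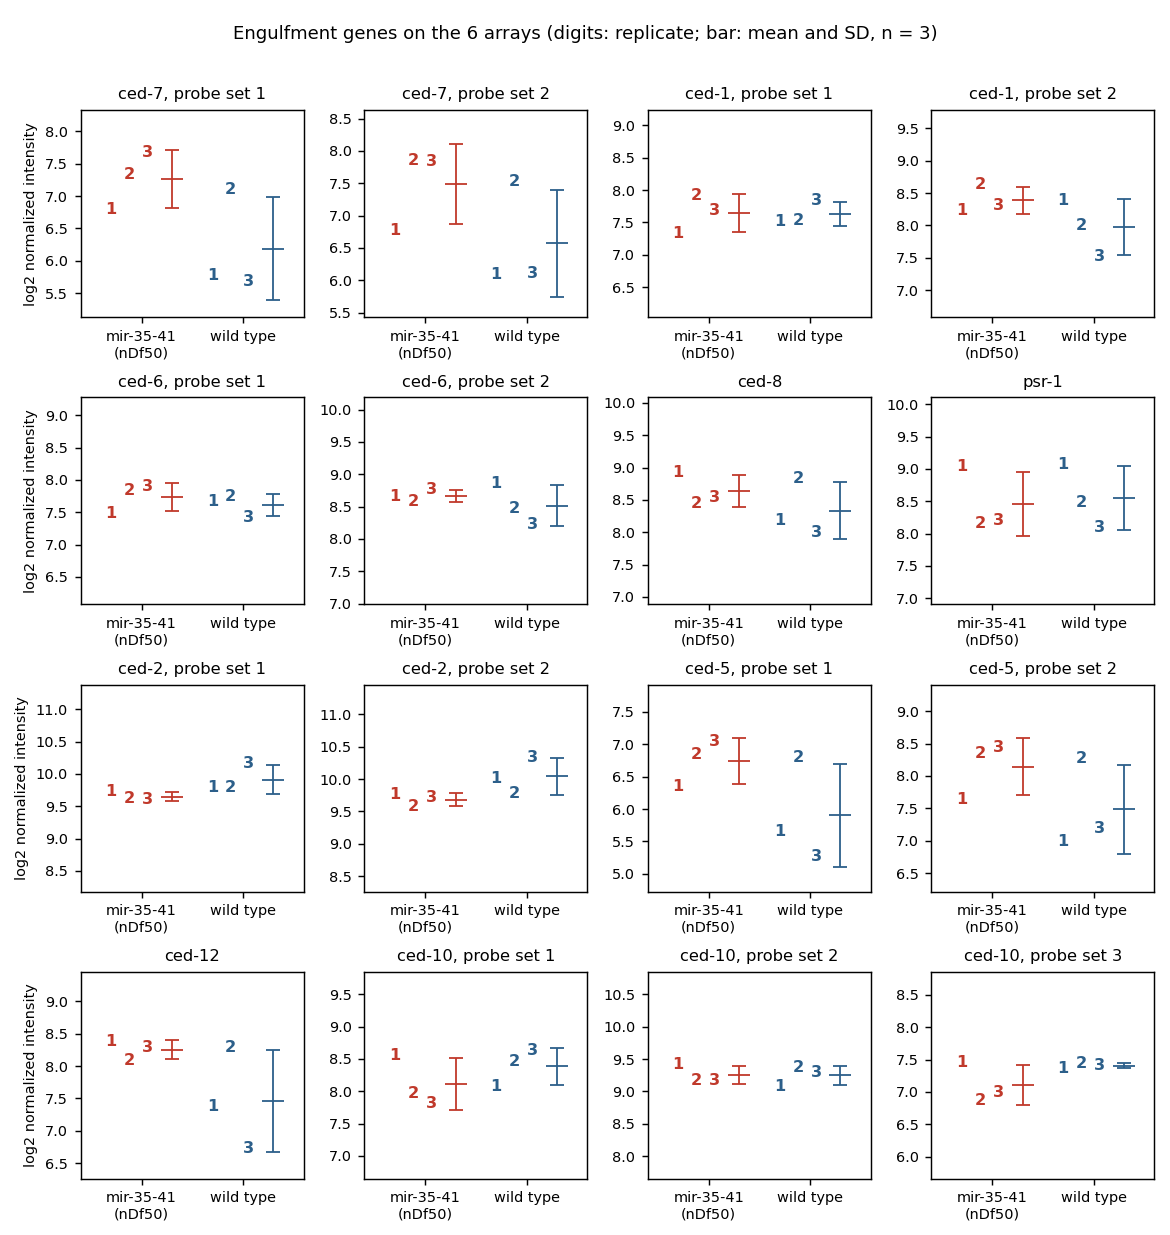
Log2 normalized intensity (vertical axis) of the 16 engulfment probe sets on the 3 mir-35-41(nDf50) and 3 wild type arrays. Probe sets of a gene are numbered in the order of their identifiers, digits are replicate numbers and bars show the mean and SD (n = 3 arrays); every panel spans the same number of log2 units, and on ced-7, ced-5 and ced-12 wild type replicates 1 and 3 lie below the mutant arrays while wild type replicate 2 lies among them.

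In the CED-1 pathway the largest differences were those of ced-7, whose ABC transporter is needed both in the dying cell and in the cell that eats it. On probe set 175793_s_at the normalized intensity was 111, 161 and 204 in mutant embryos, against 54.8, 138 and 51.1 in wild type embryos. On 193420_s_at it was 109, 230.4 and 228 in mutant embryos and 67.9, 184 and 68.8 in wild type embryos. Both probe sets thus gave the same picture, with wild type replicates 1 and 3 lowest, and with wild type replicate 2 above mutant replicate 1. The mutant averaged 2.11-fold over wild type on 175793_s_at, a log2 difference of 1.08 ± 0.41 (SE) with a limma adjusted p of 0.463. This was the 1 engulfment probe set with an unadjusted p under 0.05 (1517th in order of p among all probe sets). On 193420_s_at the difference was 0.92 ± 0.45 (adjusted p = 0.523). The wild type SD was 0.80 and 0.82 log2 units on these 2 probe sets, nearly the size of the differences.

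The receptor gene ced-1 had 2 probe sets that did not follow each other. On 189327_s_at the intensity was 301, 396 and 317 in mutant embryos, against 334, 257 and 184 in wild type embryos, a log2 difference of 0.42 ± 0.25 (limma adjusted p = 0.572). On 173720_at it was 161, 240.5 and 205 in mutant embryos and 184, 184 and 229 in wild type embryos, a difference of 0.01 ± 0.20 (adjusted p = 0.979). The groups overlapped on both. Wild type replicate 3 was the lowest array on the first of these probe sets and the second highest on the other.

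The adaptor gene ced-6, whose product binds the tail of CED-1, was close to level. On 188052_s_at the intensity was 402, 382 and 433 in mutant embryos, against 461, 353 and 298 in wild type embryos. On 175802_at it was 180, 228 and 238 in mutant embryos and 204, 215 and 171 in wild type embryos. The log2 differences were 0.15 ± 0.20 and 0.13 ± 0.19 (SE), with 95% confidence intervals from -0.31 to 0.62 and from -0.31 to 0.56. A 2-fold difference in either direction lies outside both intervals.

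Of the genes of the CED-10 pathway, ced-5 and ced-12 resembled ced-7 on the wild type arrays. They encode the DOCK180 and ELMO proteins, which act as one complex. The ced-5 probe set 175635_at read 81.6, 115 and 132 in mutant embryos, against 50.3, 111 and 38.5 in wild type embryos. Its other probe set, 191080_s_at, read 199, 325 and 349 in mutant embryos and 127, 309.8 and 146 in wild type embryos. The groups overlapped on both, because wild type replicate 2 again lay within the mutant range. The mutant averaged 1.79-fold and 1.58-fold over wild type, log2 differences of 0.84 ± 0.39 and 0.66 ± 0.37 (limma adjusted p = 0.509 and 0.561).

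For ced-12 the single probe set 174072_at read 334, 273 and 313 in mutant embryos, against 166, 313 and 106 in wild type embryos. The mutant arrays lay close together (SD 0.15 log2 units) and the wild type arrays were spread 2.96-fold (SD 0.79). The log2 difference was 0.79 ± 0.36, or 1.73-fold, with a limma adjusted p of 0.508 and a 95% confidence interval from -0.06 to 1.64.

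The adaptor gene ced-2, whose product binds CED-5, went the other way and was the single member with no overlap between the genotypes, lower in the mutant on 2 probe sets, with 0 member probe sets higher. On 175812_at the intensity was 845, 791 and 777 in mutant embryos, against 882, 882 and 1151 in wild type embryos. On 175813_s_at it was 865, 762 and 841 in mutant embryos and 1033, 876 and 1288 in wild type embryos. Every mutant array was lower than every wild type array on both probe sets, although on the second the gap between mutant replicate 1 and wild type replicate 2 was small. Both probe sets were designed on the same sequence record, so they are not independent readings of ced-2. Of all probe sets, 9.37% had every mutant array below every wild type array, and 6.16% the reverse. The log2 differences of ced-2 were -0.26 ± 0.17 and -0.36 ± 0.19 (SE), that is 0.834-fold and 0.781-fold, with limma adjusted p of 0.588 and 0.542. The upper confidence bounds were 0.14 and 0.08, so neither interval leaves out a difference of 0.

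The Rac gene ced-10, on which the CED-2, CED-5 and CED-12 signal converges, has 3 probe sets. The probe set 173435_s_at read 685, 577 and 577 in mutant embryos, against 540.4, 663 and 628 in wild type embryos, a log2 difference of 0.01 ± 0.17. The probe set 188142_s_at, designed on transcript C09G12.8A, read 176, 117 and 128 in mutant embryos and 164, 174 and 171 in wild type embryos, a difference of -0.30 ± 0.19. The third, 172721_x_at, designed on C09G12.8B, read 377, 251 and 224 in mutant embryos and 269, 350.5 and 396 in wild type embryos, a difference of -0.27 ± 0.25. On all 3 mutant replicate 1 was higher than mutant replicates 2 and 3, and the groups overlapped (limma adjusted p = 0.985, 0.588 and 0.647). An x in such a name marks probes that can also match other transcripts. The close paralogue rac-2, a redundant Rac gene, has its own probe set, with readings of 30.2, 28.7 and 25.6 in mutant embryos and 34.1, 29.6 and 47.7 in wild type embryos, and cross-matching between the 2 genes was not tested.

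Neither gene that acts at the lipid signal was called. The intensity of ced-8, an X-linked gene of the XK family, was 484, 349.5 and 372 in mutant embryos, against 290.1, 453 and 254 in wild type embryos. Here too wild type replicates 1 and 3 were the lowest arrays, and the log2 difference was 0.30 ± 0.26 (limma adjusted p = 0.628). The phosphatidylserine receptor gene psr-1 read 524, 285 and 295 in mutant embryos and 536, 359 and 272 in wild type embryos, a difference of -0.08 ± 0.33 (adjusted p = 0.906). It was highest on replicate 1 of both genotypes, and the labels do not say what arrays with the same number have in common.

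**Figure D2:**
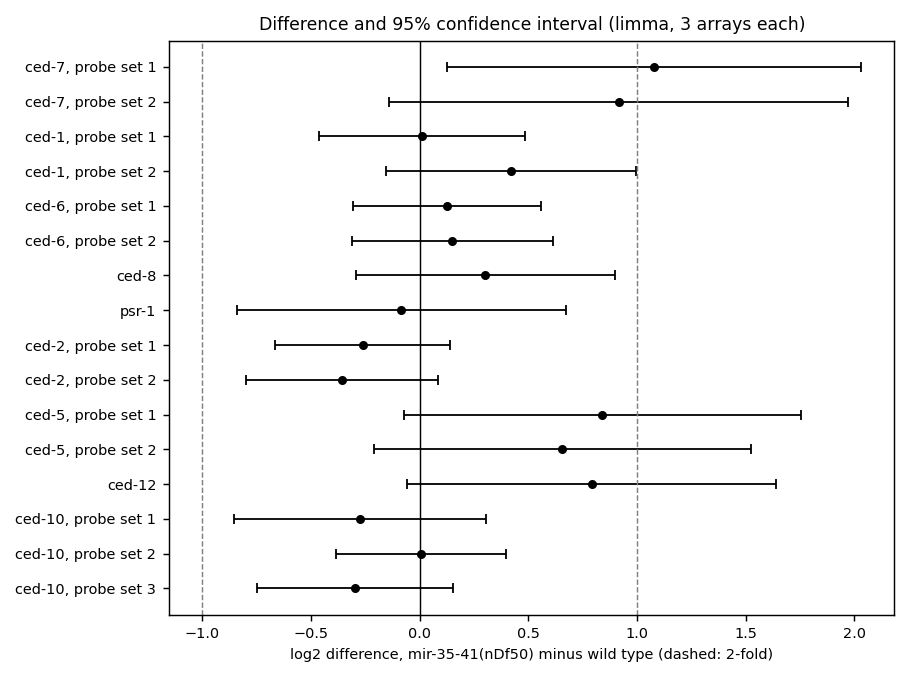
Log2 difference, mir-35-41(nDf50) minus wild type (horizontal axis), of the 16 engulfment probe sets with the 95% confidence interval of the limma fit (3 arrays each). The solid line marks 0 and the dashed lines a 2-fold difference; 15 of the 16 intervals span 0, that of ced-7 175793_s_at being the exception, and 11 lie wholly within 2-fold.

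The intervals show what these arrays can bound. On 11 of the 16 probe sets the 95% confidence interval excluded a 2-fold difference in either direction, and the same held for 75.1% of all probe sets. These 11 cover ced-1, ced-2, ced-6, ced-8, ced-10 and psr-1. The other 5 were both probe sets of ced-7, both of ced-5 and the 1 of ced-12, whose intervals reached above 2-fold higher. No interval reached 2-fold lower. In simulated arrays with the real means and spreads, the fit recovered 0 of 200 probe sets changed by 2-fold and 136 of 200 changed by 4-fold. Those 200 were drawn from all probe sets, and each probe set varied independently, without patterns shared between probe sets. The simulation therefore gives no recovery rate for the engulfment genes themselves. On the real arrays ced-7 175793_s_at averaged 2.11-fold and was not called, so an effect of about 2-fold on an engulfment gene could go uncalled.

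The array-by-array pattern split the family across its pathways. On 6 of the 16 probe sets, those of ced-7, ced-5, ced-12 and ced-8, wild type replicates 1 and 3 were both below all 4 other arrays. Of all probe sets 13.8% had that order. Wild type replicate 2 exceeded the mean of the other 2 wild type arrays 2.61-fold and 2.69-fold on ced-7, 2.52-fold and 2.28-fold on ced-5, and 2.36-fold on ced-12. On ced-2 it was lower, at 0.876-fold and 0.760-fold. On 12 of the 16 probe sets wild type replicate 2 lay within the range of the mutant arrays, as it did on 52% of all probe sets. For wild type replicates 1 and 3 these figures were 5 of 16 (36.9% of all) and 3 of 16 (18% of all). The partner genes ced-5 and ced-12, ced-7 of the other pathway and ced-8 were thus alike in their low wild type replicates 1 and 3, and ced-2 and ced-10 were not. Their mutant arrays differed in order. Mutant replicate 1 was the lowest mutant array on ced-5 and ced-7, and the highest on ced-12 and ced-8.

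**Figure D3:**
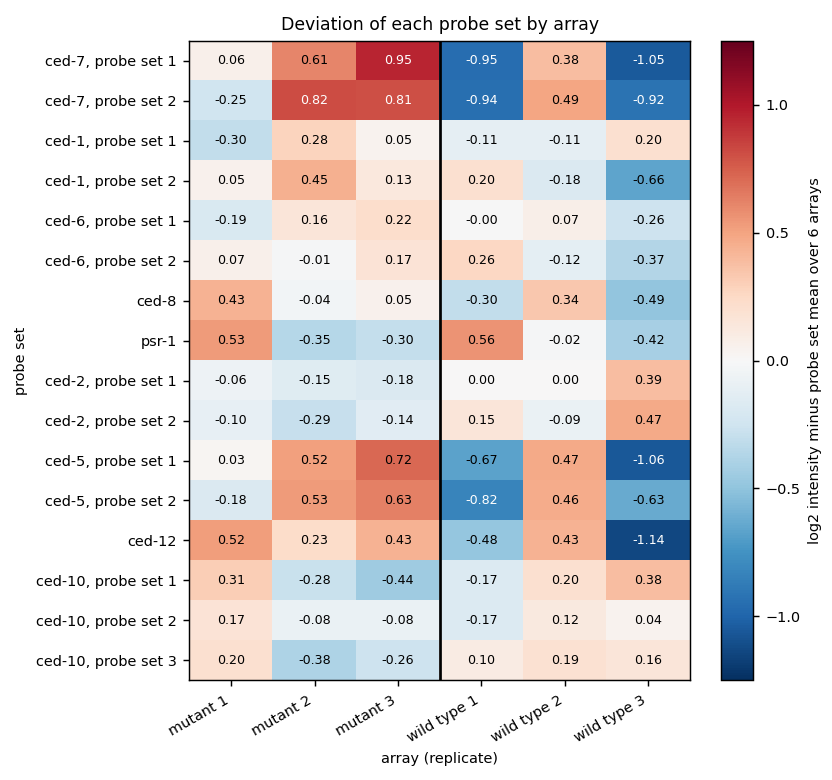
Log2 intensity of each engulfment probe set minus its own mean over the 6 arrays (colour and printed value), with the 3 mir-35-41(nDf50) arrays left of the line and the 3 wild type arrays right of it. Wild type replicates 1 and 3 are lowest on ced-7, ced-5, ced-12 and ced-8, and wild type replicate 2 resembles the mutant arrays there.

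Where a gene had several probe sets, they agreed to different degrees. The root mean square difference of their centred log2 values over the 6 arrays was 0.10 for ced-2, 0.18 for ced-7, 0.19 for ced-6, 0.21 for ced-5, between 0.18 and 0.23 for the pairs of ced-10, and 0.41 for ced-1. The 2 probe sets of ced-1 therefore do not give 1 level for that gene, while those of ced-7, ced-5 and ced-2 give the same order of genotypes.

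By the same measure, the probe set of another gene nearest to each member was named from all probe sets that name a single gene. Nearest to ced-7 was spr-1 (0.055), to ced-5 pqn-80 (0.043), to ced-12 uncp-18 (0.059) and to ced-8 efl-3 (0.045). Nearest to ced-1 was mvk-1 (0.060), to ced-6 xbp-1 (0.029), to psr-1 oatr-1 (0.044), to ced-2 F54B11.11 (0.030) and to ced-10 set-3 (0.037). Over 6 arrays and so many probe sets such near matches are easily found, and each is closer than the member's own other probe set where there is one. None of these neighbours passed the test, with limma adjusted p between 0.482 and 0.907.

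The calls depended on which wild type arrays were kept. Without wild type replicate 2, 3 engulfment probe sets were higher past the threshold: ced-7 175793_s_at at 1.54 ± 0.27 (limma adjusted p = 0.0292), ced-12 at 1.205 ± 0.24 (0.0384) and ced-5 175635_at at 1.29 ± 0.25 (0.0396). In that fit 5.72% of all probe sets were called, and 7 of the 16 members had an unadjusted p under 0.05, against 24.2% of all probe sets. The other probe sets of ced-7 and ced-5 gave 1.39 ± 0.35 and 1.05 ± 0.27 (adjusted p = 0.0726 and 0.0811). With wild type replicates 1 and 3 left out instead, the differences were 0.16 and -0.04 for ced-7, -0.05 and -0.13 for ced-5 and -0.04 for ced-12, with 0 of 16 called by limma and 0 at an unadjusted p under 0.05, against 9.77% of all probe sets. That fit has a single wild type array, which is assumed to vary like the mutant arrays. Without wild type replicate 1 the same 5 differences lay between 0.41 and 0.87, and without wild type replicate 3 between 0.42 and 0.82, with 0 called. With the replicate number as a block, 0 were called and 4 had an unadjusted p under 0.05 (both probe sets of ced-7 and of ced-5), against 9.95% of all probe sets. With array weights estimated gene by gene, 5 were higher past the threshold, those of ced-7, ced-5 and ced-12, where 16% of all probe sets were called. Those weights were 0.459, 4.59 and 4.88 on the mutant arrays and 1.77, 0.384 and 0.143 on the wild type arrays. That fit thus rested mostly on mutant replicates 2 and 3 and wild type replicate 1, with wild type replicate 2 weighted down. Weights from the default estimate, which did not converge, called 12 members and 60.5% of all probe sets. The difference of ced-2 kept its sign in all of these fits, and was -0.13 and -0.21 without wild type replicate 3 and -0.135 and -0.093 without wild type replicates 1 and 3.

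**Figure D4:**
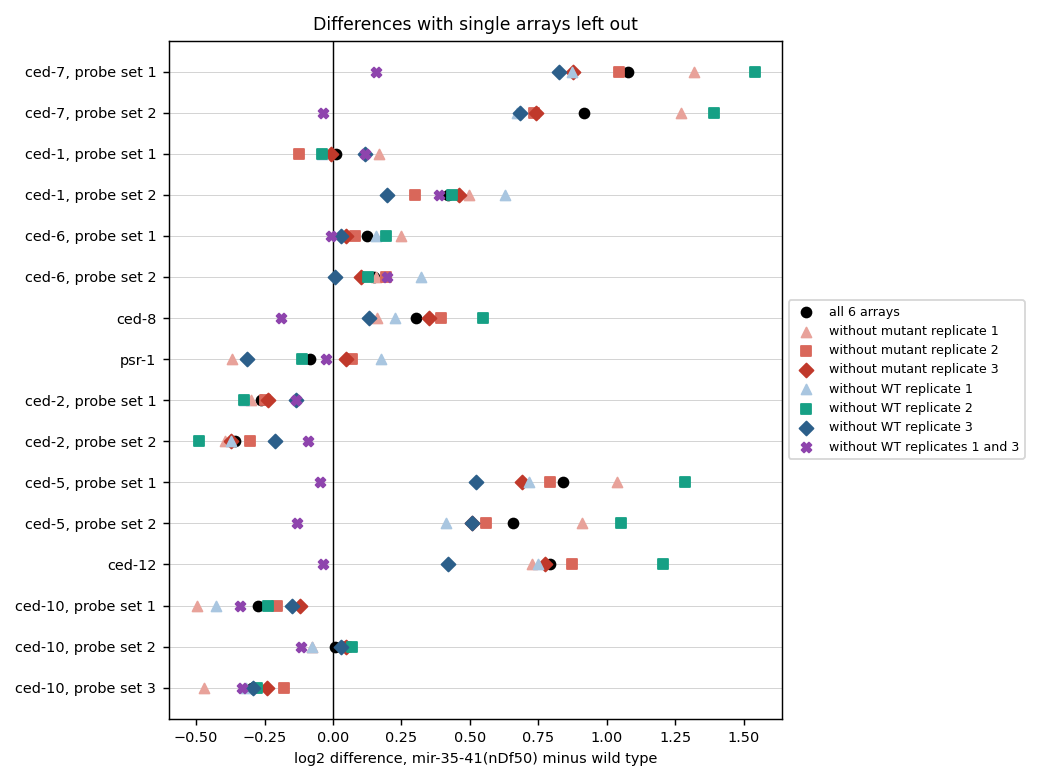
Log2 difference, mir-35-41(nDf50) minus wild type (horizontal axis), of each engulfment probe set with all 6 arrays (black), with each array left out in turn, and with wild type (WT) replicates 1 and 3 left out together (purple crosses). For ced-7, ced-5 and ced-12 the points range from near 0 without WT replicates 1 and 3 up to between 1.05 and 1.54 without WT replicate 2.

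Of the stage markers, the maternal list moved with the same arrays. Among 17 maternal oocyte and eggshell genes, whose RNA is laid down by the mother, the median deviation from the gene means was -0.21, -0.22 and -0.34 in mutant embryos, against 0.48, -0.16 and 0.44 in wild type embryos. Wild type replicates 1 and 3, the arrays low in ced-7, ced-5 and ced-12, were thus the ones high in maternal RNA. The summed intensity of this list ran from 16550 to 18361 in mutant embryos and from 17730.2 to 29744 in wild type embryos. No listed maternal gene was called. At an unadjusted limma p under 0.05, 6 of 17 were lower in the mutant, against 4.07% of all genes with 1 probe set each, and 15 had a negative difference, against 62.5% of all genes. The other 2 had a positive difference. The eggshell proteoglycan gene cpg-2, which had the smallest p of the list, read 368, 450 and 449 in mutant embryos, against 1305, 739 and 819 in wild type embryos. On cpg-2 wild type replicate 2 was near wild type replicate 3 and above every mutant array, so this gene does not stand for the whole list. The part of these maternal differences in the engulfment values was not tested. In whole-embryo RNA, fewer cells or embryos that express a gene and less RNA per cell cannot be told apart.

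Markers of other ages and tissues did not line up in one way. Of 11 neuronal genes, which mark late embryos, the median deviation was 0.02, 0.30 and 0.21 in mutant embryos and -0.03, 0.27 and -0.76 in wild type embryos. Of these 11 genes 9 had a positive difference, against 37.5% of all genes, and the median difference was 0.41, against -0.10. The genotypes did not overlap on 3, higher in the mutant, and on 1, lower, against 6.16% and 9.37% of all probe sets. None was called by limma. The summed intensity of the neuronal genes was 5730 to 7000 in mutant embryos and 5766 to 6338 in wild type embryos. Muscle genes (10) were lowest on mutant replicate 1, at -0.51, and lay between -0.08 and 0.27 on the other 5 arrays. The median deviations of early zygotic genes (11) and epidermal genes (11) stayed between -0.17 and 0.12 on all arrays. Single genes in these 2 lists differed more. At an unadjusted limma p under 0.05 there were 1 early zygotic gene, lower, and 2 epidermal genes, higher, against 10.6% of all genes in either direction. Of material from adults, the 6 vitellogenin genes summed to 253 to 274 in mutant embryos and 243 to 416 in wild type embryos, and 33 sperm genes summed to 2768 to 3679 on the mutant arrays and 2562 to 4253 on the wild type arrays. Both lists were highest on wild type replicate 3, at 0.54 and 0.51, and their part in the results was not tested. No marker was listed at 0, but the lowest intensity of any probe set was 7.4, so this does not show that a marker was detected. Among these lists vit-2 (10.2 to 14.2) and spe-11 (12.1 to 16.2) lay near that floor.

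**Figure D5:**
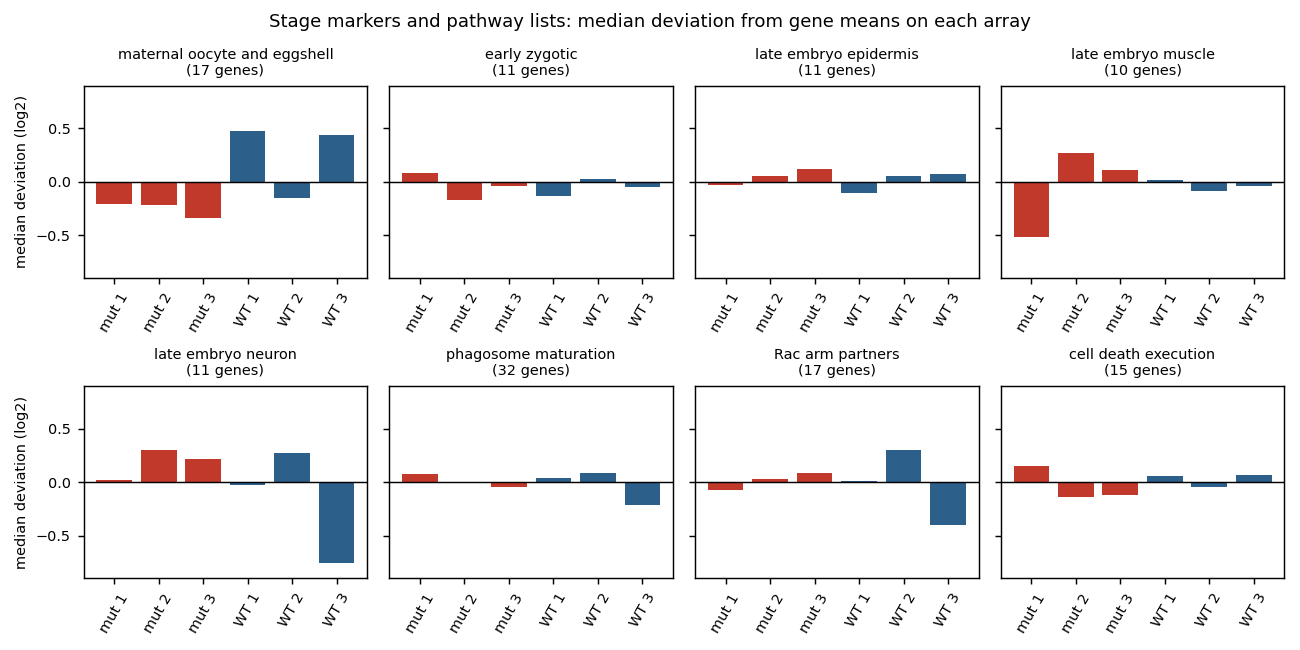
Median deviation (log2 units) from each gene's mean over the 6 arrays, for 5 lists of stage or tissue markers and 3 lists of genes that act with the engulfment genes. Red bars are mir-35-41(nDf50) arrays and blue bars are wild type arrays; maternal genes are high on wild type replicates 1 and 3, where ced-7, ced-5 and ced-12 are low.

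The wider pathway was read from 5 lists that hold 75 measured genes, each shown by its probe set with the highest mean. None was called by limma in either direction, 5 had an unadjusted p under 0.05, and 38 of 75 had a positive difference. The genotypes did not overlap on 3 of the 75 genes, higher in the mutant, and on 5, lower in the mutant. Over all probe sets these shares were 6.16% and 9.37%. With 1 probe set per gene, 10.6% of all genes had an unadjusted p under 0.05. The median log2 difference of the 75 genes was 0.01, against -0.10 for all genes.

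Upstream of the receptors, 7 measured genes control the exposure and recognition of phosphatidylserine, and their median difference was 0.05. The smallest p belonged to anoh-1, of the anoctamin family, at 0.44 ± 0.26 (limma adjusted p = 0.577). Next was ttr-52, whose secreted product bridges phosphatidylserine and CED-1. It read 149, 145 and 153 in mutant embryos, against 158, 169 and 259.7 in wild type embryos, with no overlap and a difference of -0.35 ± 0.22 (adjusted p = 0.580). The lipid flippase gene tat-1, which keeps phosphatidylserine inside living cells, differed by 0.35 ± 0.46. The 4 partners of the CED-1 pathway were led by the epsin gene epn-1 at -0.38 ± 0.21, and dynamin dyn-1 and the adaptor subunit apa-2 were at 0.09 ± 0.39 and -0.03 ± 0.21.

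Of 17 measured genes that feed into the Rac pathway, 9 had a positive difference. The Frizzled receptor gene mom-5, which can signal to CED-10 in engulfing cells, read 494, 279.9 and 284 in mutant embryos, against 185, 259 and 182 in wild type embryos. The 2 genotypes did not overlap, and the difference was 0.73 ± 0.27 (limma adjusted p = 0.456). The integrin gene ina-1, an engulfment receptor upstream of CED-2, CED-5 and CED-12, read 1195, 1169 and 1191 in mutant embryos, against 478, 1301 and 543 in wild type embryos. That is the order seen for ced-5 and ced-12, with wild type replicates 1 and 3 low and wild type replicate 2 high. Its difference was 0.77 ± 0.36 (adjusted p = 0.510). The Rac-like GTPase gene mig-2 was at -0.44 ± 0.21 (adjusted p = 0.513), with no overlap between the genotypes.

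Downstream, 32 measured genes of phagosome maturation, the steps that digest the corpse once it is inside, had a median of 0.04. The smallest p belonged to laat-1, a lysosomal amino acid transporter gene. It read 98.9, 103.98 and 113.2 in mutant embryos, against 143, 168 and 196 in wild type embryos, a difference of -0.67 ± 0.18 (limma adjusted p = 0.299) with no overlap. The retromer genes vps-26 and vps-35, whose products return CED-1 from the phagosome to the cell surface, followed. The intensity of vps-26 was 403, 377 and 340.3 in mutant embryos, against 126, 282 and 122 in wild type embryos, 2.29-fold higher on average with no overlap (1.19 ± 0.33, adjusted p = 0.315). For vps-35 the difference was 0.60 ± 0.24 (adjusted p = 0.471).

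The death programme itself, which produces the corpses, was the closest list for comparison. Of its 15 genes 5 had a positive difference, the median was -0.09 and none was called by limma (1 at an unadjusted p under 0.05). The exonuclease gene crn-3 read 298, 285 and 368 in mutant embryos, against 61.8, 273 and 117 in wild type embryos, with no overlap (1.33 ± 0.48, limma adjusted p = 0.450). It too was low on wild type replicates 1 and 3. The nuclease genes cps-6 and crn-1 differed by 0.61 ± 0.27 and -0.30 ± 0.17 (adjusted p = 0.501 and 0.563), with no overlap on crn-1. Across the 9 engulfment genes with 1 probe set each, 7 had a positive difference and the median was 0.30, beside 37.5% positive and a median of -0.10 over all genes. Among probe sets at or above the median level, 49.2% were positive. The 7 include ced-10 at 0.01, whose other probe sets were at -0.30 and -0.27, and ced-1 at 0.42, whose other was at 0.01. No test of the difference between these lists was made.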

How the data were processed

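Total RNA of 3 mir-35-41(nDf50) and 3 wild type embryo samples was measured on Affymetrix arrays. The table used holds the authors' normalized intensities on a linear scale, and the deposited log2 values of the series matrix are the same numbers (largest difference 5.63e-06). Affymetrix Expression Console is named in the submitters' processing notes. The version, background correction and normalization were not given in the sources used here, and the array medians were not equal, with wild type replicate 3 the lowest. From 22625 probe sets 77 controls were dropped, and all 22548 others were tested, however dim. Of these, 20865 name 1 gene. Symbols were brought up to date with RefSeq's WBcel235 gene table (16045 matched on the symbol, 3566 on the sequence name, and 1254 were left as deposited).

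Log2 intensities were fitted in limma 3.58.1 (R 4.3.3) with lmFit and eBayes, genotype being the only term, and two-sided p-values were adjusted by Benjamini-Hochberg across all probe sets (threshold 0.05). The number of arrays, 3 per group, limits the precision. On simulated data (22548 features, 200 changed) the fit recovered 0 at 2-fold with 0 false calls, 136 at 4-fold with 6 and 186 at 8-fold with 8.

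All engulfment probe sets are named. Of each partner list, called members and up to 3 with the smallest p are named. The paralogue rac-2, cpg-2 as an example of the maternal list, and egl-1, ced-9, ced-4 and ced-3 were named after their values were seen. The members and lists were chosen with earlier results of these data known. Listed genes with no feature here (apr-1, vps-33.1, slc-36.1 and 5 markers) were not analysed. Alternatives covered each array left out, the replicate number as a block, the value table, quantile normalization again, centring, removal of dim features, addition of 16 before log2, another variance prior, array weights, and mutant replicates 2 and 3 averaged. These 2 arrays had gene-by-gene weights of 4.59 and 4.88, against 0.459 for mutant replicate 1, so they resembled each other more. Whether they are independent samples is not known. With them averaged, 0 probe sets were called over the array, against 29 without. Gene-by-gene array weights and leaving out wild type replicates 1 and 3 together were added after seeing the data. Same-numbered arrays had correlations of deviations of -0.032, 0.072 and -0.176, and arrays with different numbers had between -0.221 and 0.298. With 3 arrays per group these values cannot decide whether same-numbered arrays were paired.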

Additional observations from a re-analysis of the deposited data

How the results depend on the processing

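With all 6 arrays 0 engulfment probe sets were called by limma in either direction, and this held under every alternative except 3. Without wild type replicate 2 there were 3 higher, with gene-by-gene array weights 5 higher, and with the default array weights 8 higher and 4 lower. The default weights did not converge (0.095 for wild type replicate 3, 21.1 for wild type replicate 1) and that fit called 13639 of all probe sets, so it is not used. Leaving out 1 array gave between 0 and 3 member calls, between 0 and 7 members at an unadjusted p under 0.05, between 0 and 1289 calls over all probe sets and between 0 and 4 partner calls. Members at an unadjusted p under 0.05 numbered 4 with the replicate block, 12 and 8 with default and gene-by-gene weights, 0 with mutant replicates 2 and 3 averaged and 0 without wild type replicates 1 and 3. Calls over all probe sets numbered 19 with the replicate block, 3 after quantile normalization again, 50 after centring, 8 with 16 added, 46 with the intensity trend and robust prior, 0 with mutant replicates 2 and 3 averaged, 3608 with gene-by-gene weights and 0 without wild type replicates 1 and 3. Partner calls numbered 46 and 12 with default and gene-by-gene weights.

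Median differences of the members ranged from -0.04 without wild type replicates 1 and 3 to 0.20 without wild type replicate 1. Centring moved the median over all probe sets by -0.13, and the member median was then 0.01. Some signs turned. For ced-1 173720_at they were -0.14 after quantile normalization, -0.12 after centring, -0.065 with mutant replicates 2 and 3 averaged, and with single arrays out between -0.12 and 0.17. For ced-10 173435_s_at they were -0.028, -0.12 and, without wild type replicates 1 and 3, -0.12, and with single arrays out between -0.078 and 0.069. For ced-6 175802_at they were -0.010, -0.0030 and -0.0090 in the same 3 settings, and for ced-6 188052_s_at -0.17 and -0.075 with default and gene-by-gene weights. For psr-1 the difference was 0.059 with mutant replicates 2 and 3 averaged and between -0.37 and 0.18 with single arrays out. Without wild type replicates 1 and 3, ced-7 193420_s_at was at -0.036, ced-8 at -0.19, ced-5 at -0.049 and -0.13 and ced-12 at -0.036. The replicate block changed no call of a member. The cause of these changes was not tested. With 3 arrays per group, probe sets changed by about 2-fold can be missed.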

Other observations

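The 4 genes at the core of the death decision were named after their values were seen, and none was called by limma. No bound was set on the size of their differences. The trigger egl-1 read 264, 174 and 219 on the mutant arrays, against 194, 198 and 474 on the wild type arrays, and the groups overlapped, with wild type replicate 3 the highest array. Its log2 difference was -0.29 ± 0.36 (limma adjusted p = 0.716). The death inhibitor ced-9 read 1109, 705 and 698 on the mutant arrays, against 968, 1010.03 and 1210.3 on the wild type arrays (-0.37 ± 0.23, adjusted p = 0.579). The activator ced-4 differed by 0.01 ± 0.24 and the caspase gene ced-3 by -0.19 ± 0.16. None of these 4 genes was low on wild type replicates 1 and 3 together, as ced-7, ced-5 and ced-12 were.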
